A study of Rattus norvegicus with 30 samples.

Results

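The proximal stump of the sciatic nerve was examined 7 d after transection against the nerve at 0 d, the control group, in all 6 arrays that carry these labels out of 30 in the series. All rats were adult male Sprague-Dawley animals. In the operated rats a segment of the left sciatic nerve was resected at mid-thigh, just above the point where the tibial and common peroneal nerves divide. Nerve tissue was collected from the proximal side. The 7 d group is 3 arrays of such tissue taken 7 d after the operation, and the 0 d group is 3 arrays of the same tissue at 0 d. The labels do not say whether the 0 d rats were operated on. Gene expression was read with 1-colour Agilent arrays of the rat genome, and the other arrays hold the nerve at 1, 4 and 14 d and the L4-6 dorsal root ganglia at the same days. The study's methods state 3 biological replicates for each time point. The labels and the methods give different numbers of rat groups, and neither states which or how many rats an array holds. P-values therefore measure the spread between arrays, and whether this is the spread between single animals is not stated.

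A peripheral nerve is made of axons, the Schwann cells that wrap them in myelin, fibroblasts, perineurial and endothelial cells, and resident macrophages and mast cells. After a cut, Schwann cells near the injury are known to lower their myelin and lipid synthesis genes, to switch on a repair program and to divide. Blood-borne macrophages and lymphocytes enter the tissue, and the axon tips above the cut sprout towards the lost distal stump. The samples are whole tissue, so fewer cells of a type and less RNA per cell cannot be told apart.

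Signals are given as log2 of the processed intensity relative to the 75th percentile of the array, so that 0 is the level of a fairly bright probe and a difference of 1 is a 2-fold change. Testing was limited to probes detected, that is well above background, by every array of 1 or more nerve time points, and a probe was called when limma's adjusted p was under 0.05 with a fold change over 2. On the 0 d arrays 30220 to 31303 probes were well above background, and on the 7 d arrays 33988 to 34335. Arrays of one group correlated at 0.985 to 0.992 at 0 d and 0.995 to 0.996 at 7 d, and arrays of different groups at 0.949 to 0.959. The 0 d arrays of the nerve share a slide and a scan day, and the 7 d arrays share another slide and day, so that slide and time point cannot be told apart in this comparison. Skeletal muscle genes set replicate 1 of each group apart from the other arrays, as described below.

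At 7 d, 6365 of 35157 probes tested had risen (18.1%) and 2395 had fallen (6.81%), which together is 24.9%. Of the probes that rose, 6100 did so by 2- to 10-fold, 251 by 10- to 50-fold and 14 by more, and of those that fell 2349, 45 and 1. For 2093 of the probes that rose the 0 d arrays gave no signal well above background, so their change is a bound. Probes measured on all 6 arrays were more evenly divided, with 3529 higher and 2181 lower. The median of all probes tested was 0.15 higher at 7 d on this scale and -0.0021 after quantile normalization, and changes should be read against that shift. The share of called probes that were higher was 72.7% here, 55.7% after quantile normalization, 55.6% in the authors' matrix values and 51.9% with normexp background correction and quantile normalization. With normexp background correction and quantile normalization, 46 of the 124 called genes that are named here moved by over 1.5 times, against 8 with quantile normalization alone, and the fold changes below are those without that correction. Taking 1 probe a gene, 3177 of 15982 genes rose (19.9%) and 1151 fell (7.2%), and the counts of the 27 gene lists below are read against these shares. The groups did not overlap for 69.1% of all probes and 72.1% of all genes.

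**Figure D1:**
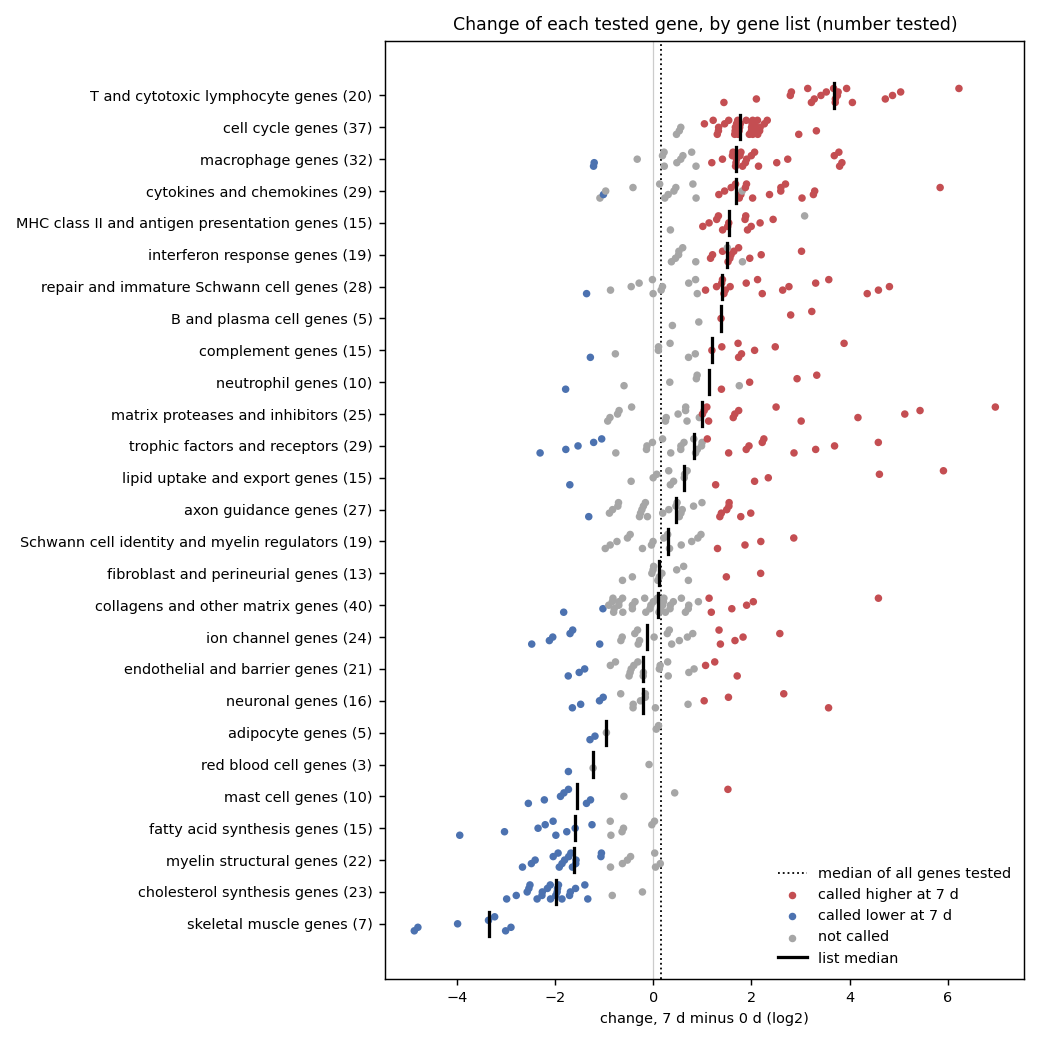
Each point is the change of 1 tested gene from 0 d to 7 d (log2, 1 probe a gene), by gene list with the number of tested genes in brackets. Red points were called higher, blue points lower and grey points were not called, black bars are list medians and the dotted line is the median of all genes tested, 0.16. Points of genes that were not well above background at 0 d depend on the background and are bounds. T and cytotoxic lymphocyte, cell cycle and macrophage genes lie furthest to the right, and cholesterol synthesis and muscle genes furthest to the left.

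Genes for the structure of myelin were lower. Of 22 tested, 15 fell and none rose, with a median change of -1.62 against 0.16 for all genes. Mbp, which compacts the cytoplasmic faces of myelin, was at 5.99, 5.83 and 6.19 and then at 4.25, 3.80 and 4.2, and the groups lie clear of each other (3.78-fold lower, log2 -1.92 ± 0.16 SE, adjusted p = 8.94e-07 by limma). Ugt8, which makes the myelin lipid galactosylceramide, fell 6.37-fold and Mal, a myelin proteolipid, 5.61-fold, the most of this list. Prx (periaxin) fell 3.31-fold and Mag 2.10-fold. Mag stayed under 2-fold after quantile normalization (log2 -0.96) and without 0 d replicate 2 (log2 -0.90). Pmp22, another major myelin protein, was 1.83-fold lower (adjusted p = 1.6e-05), with no overlap but under the 2-fold mark. The size of its fall depended on the scaling. From log2 -0.88 here it went to -0.42 after quantile normalization, -0.43 in the authors' matrix and -0.31 with normexp background correction and quantile normalization.

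Not all genes of the Schwann cell moved with myelin. In the list of Schwann cell identity and myelin regulators 4 of 19 rose, none fell, and the median change was 0.29. With normexp background correction 2 were called higher, and 1 was called lower after quantile normalization, in the authors' matrix, and without 0 d replicate 2 or 7 d replicate 3. Sox10, the transcription factor that Schwann cells need throughout life, was at 5.42, 5.77 and 5.71 at 0 d and 5.53, 5.30 and 5.39 at 7 d, and these ranges overlap (log2 -0.22 ± 0.11, adjusted p = 0.0987). Erbb3, a receptor for neuregulin, overlapped as well (log2 -0.04, adjusted p = 0.775), with log2 -0.34 after quantile normalization (adjusted p = 0.0358). Egr2, the driver of myelin genes, was 1.84-fold lower (adjusted p = 0.0019). Nrg1, the ligand of Erbb3, rose 7.28-fold. Tfap2a, a factor of Schwann cell precursors, was not well above background at 0 d and rose at least 1.51-fold, and it was no longer called with normexp background correction. All 5 Schwann cell markers, Sox10 and Erbb3 among them, were measured on every array. Their summed signal was 8.70 to 9.02 at 0 d and 7.54 to 7.73 at 7 d, with 2 called lower and the other three not called. The part of Schwann cell number in the myelin result was not tested.

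Genes of cholesterol synthesis fell almost as a whole. Of 23 tested, 21 fell and none rose, with a median of -1.99. Cholesterol is a main lipid of myelin, and Schwann cells are known to make it themselves. Hmgcs1, the HMG-CoA synthase of the early pathway, was at 7.12, 7.51 and 7.61 and then at 4.67, 4.56 and 4.61, so that the arrays of 7 d lie close together and below all of 0 d (6.95-fold lower, adjusted p = 2.78e-08). Tm7sf2, a late-step reductase, fell 7.96-fold and Sqle, which makes squalene epoxide, 4.30-fold.

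The promoters of Tm7sf2 and Hmgcs1, the members that fell most among those with the motif, show a letter pattern that most of the list shares. Below are the 250 bases before the RefSeq start of each gene on GRCr8 (chr1:212789542-212789791, minus strand, and chr2:53382054-53382303, plus strand), read 5′ to 3′ along the gene, with CCAAT on either strand in capitals.
Tm7sf2: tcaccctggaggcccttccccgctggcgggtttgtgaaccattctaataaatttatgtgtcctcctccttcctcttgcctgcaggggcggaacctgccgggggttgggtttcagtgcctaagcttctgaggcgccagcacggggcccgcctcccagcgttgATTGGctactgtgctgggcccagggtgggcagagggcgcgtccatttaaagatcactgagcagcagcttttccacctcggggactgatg
Hmgcs1: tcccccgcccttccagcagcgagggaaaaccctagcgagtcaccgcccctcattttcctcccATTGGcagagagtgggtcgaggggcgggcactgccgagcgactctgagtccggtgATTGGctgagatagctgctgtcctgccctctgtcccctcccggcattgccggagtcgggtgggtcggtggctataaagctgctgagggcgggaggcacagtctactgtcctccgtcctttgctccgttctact
CCAAT is the box bound by NF-Y, which is known to work with the sterol-regulated SREBP factors. It stood in 14 of 17 tested cholesterol genes that have a promoter in the table and in 34% of all 33469 promoters. A gene was counted if any of its promoters held the motif, while the share is over single promoters. These are unlike measures, and a gene with several promoters has more chances of a match. The letters TCACNCCAC, one form of the sterol element, were in none of the windows of the 17 genes and in 0.974% of all. These matches describe the sequence and no binding was measured.

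Fatty acid synthesis was lower too, with 9 of 15 genes fallen and none risen (median -1.60). Scd (Scd1 on the array) desaturates stearate. At this scaling it showed the greatest fall among the genes measured on all 6 arrays outside the muscle genes. After quantile normalization Zbtb16 (log2 -4.03) and Hrk (-3.89) fell further than Scd (-3.82). The signals of Scd were 4.24, 4.02 and 2.55 at 0 d and -0.33, -0.36 and -0.36 at 7 d. Replicate 3 of 0 d was lower than the other controls, yet every 7 d array lay far below it (15.5-fold lower, adjusted p = 5.77e-06). Fasn, the fatty acid synthase, went from 6.16, 6.31 and 6.13 to 4.30, 4.10 and 4.07, a 4.13-fold fall, and Elovl6, which lengthens fatty acids, fell 8.21-fold. The transcription factors themselves moved little, with Srebf1 at log2 0.02 and Srebf2 at -0.22. Adipocyte markers varied among the 0 d arrays, with a summed signal of 6 markers of 5.67 to 6.49 at 0 d and 5.81 to 5.99 at 7 d, and Adipoq was highest on 0 d replicate 1 (4.36) and lowest on replicate 3 (3.14). The part of fat tissue in the fall of these lipid genes was not tested.

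**Figure D2:**
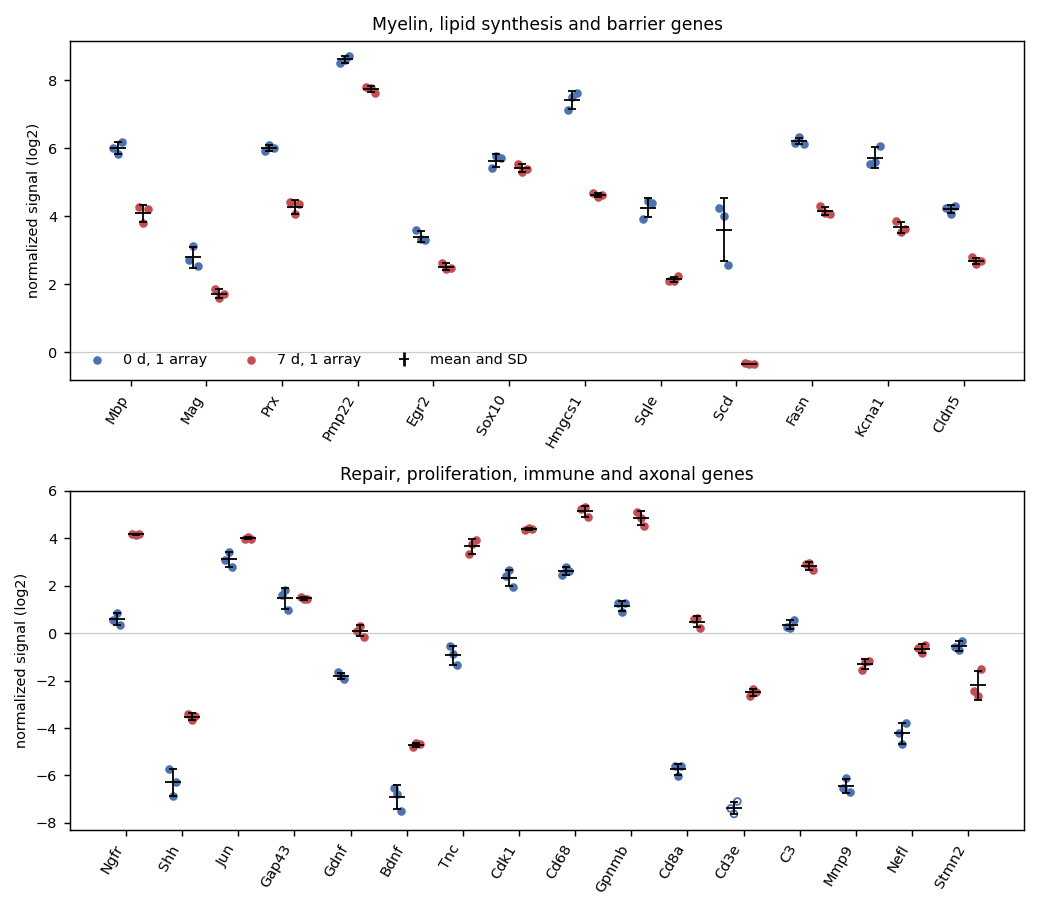
Normalized signal (log2) of 28 named genes on each 0 d array (blue) and 7 d array (red), with the mean and SD of the 3 arrays in black. Open circles mark a group in which no array was well above background. Mbp, Hmgcs1, Fasn and Kcna1 were lower on every 7 d array, Sox10 and Gap43 overlapped between the groups, and Ngfr, Tnc, Gpnmb and Cd8a were higher on every 7 d array.

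Genes of the repair and immature Schwann cell state rose in 17 of 28 cases and 1 fell, with a median of 1.40. Of these, 10 were called with normexp background correction and quantile normalization, and 11 among genes measured in both groups. Called lower were 3 after quantile normalization, and 2 without 0 d replicate 1 or 7 d replicate 3. Ngfr, the low-affinity neurotrophin receptor that immature Schwann cells carry (probe on rn4 chr10:84263082-84263141), was at 0.56, 0.85 and 0.36 at 0 d and at 4.17, 4.16 and 4.16 at 7 d. The arrays of 7 d are nearly equal and lie 11.9-fold above 0 d (log2 3.58 ± 0.11, adjusted p = 1.19e-09). Shh, a signal that Schwann cells make after injury, was dim at 0 d, with -5.73, -6.86 and -6.28 and 2 of 3 arrays well above background. It was at -3.39, -3.68 and -3.50 at 7 d (6.80-fold higher, adjusted p = 5.86e-05), and at log2 0.92 it was under the 2-fold mark with normexp background correction. Ucn2, urocortin 2, had the greatest change of the list, from -6.37, -5.71 and -5.94 to -1.03, -1.35 and -1.19. Its rise was 28.1-fold, with 2 of 3 arrays of 0 d well above background.

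Other genes known for this state did not rise past the mark at this scaling. Jun, the transcription factor that drives the repair program, was at 3.09, 3.43 and 2.81 and then at 3.98, 4.04 and 3.99. The groups do not overlap, and the difference of log2 0.90 passed the test (adjusted p = 4.84e-05) but not 2-fold. It was 1.07 after quantile normalization, 1.06 in the authors' matrix and 1.04 with normexp background correction and quantile normalization. Without 0 d replicate 2 it was 1.05. Jun was called in all of these, so its call depended on the scaling. Gap43, a growth-associated protein of axons and of Schwann cells without myelin, overlapped fully, with 0.98 to 1.83 at 0 d and 1.43 to 1.52 at 7 d (log2 -0.01, adjusted p = 0.981). Olig1 fell 2.57-fold, and at log2 -0.96 it missed the mark with normexp background correction.

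Among trophic factors and their receptors 10 of 29 rose and 5 fell. With the filter for genes measured in both groups 5 were called higher, and with normexp background correction 3 were called lower. Gdnf, which keeps motor neurons alive, went from -1.66, -1.82 and -1.92 to 0.11, 0.32 and -0.14, a clear separation of 3.71-fold (adjusted p = 2.49e-07). Bdnf, the ligand of Ntrk2, was well above background on 1 of 3 arrays at 0 d (-6.51, -6.78 and -7.49) and on all at 7 d (-4.80, -4.64 and -4.68), 4.66-fold higher, though with normexp background correction the change was log2 0.47. Gfra1, the receptor of Gdnf, was 1.54-fold higher and stayed under the mark (adjusted p = 0.000529).

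The receptor subunits of the Gdnf family moved in opposite directions. Gfra3, the co-receptor of artemin, went from -2.11, -2.00 and -2.13 to 1.52, 1.61 and 1.71, so that the ranges are far apart (12.9-fold higher, adjusted p = 2.34e-09). Ret, the kinase that signals for all these co-receptors, went from 2.20, 2.31 and 2.42 to 0.16, -0.14 and -0.02, 4.96-fold lower. A second probe of Ret gave log2 -2.38 and was called, and 2 dimmer ones gave -0.78 and -0.24 and were not. Nrtn, the ligand neurturin, fell 3.45-fold. Il6, a cytokine that is induced in injured nerve, was not well above background at 0 d and rose at least 5.66-fold.

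Cell cycle genes rose in 34 of 37 cases with none lower, and the median was 1.77. The exceptions were E2f1 (log2 0.47), Pcna (0.53) and Ccnd1 (0.56), which were higher but under 2-fold. Cdk1, the kinase that starts mitosis, was at 2.40, 2.64 and 1.97 and then at 4.33, 4.42 and 4.37 (4.12-fold higher, adjusted p = 3.35e-07). Top2a, which untangles chromosomes, went from 0.21, 0.41 and -0.54 to 2.10, 2.07 and 2.09, 4.16-fold higher. In both genes replicate 3 of 0 d was the lowest control and the 7 d arrays were close together. Birc5, survivin of the dividing cell, rose most (log2 3.32), and Mcm5, part of the replication helicase, rose 7.80-fold.

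Birc5 and Top2a are the members with the greatest rise that hold TTTGAA, the cell cycle homology region, in the 250 bases before the RefSeq start on GRCr8 (chr10:103571896-103572145, plus strand, and chr10:84473094-84473343, minus strand). The motif on either strand is in capitals.
Birc5: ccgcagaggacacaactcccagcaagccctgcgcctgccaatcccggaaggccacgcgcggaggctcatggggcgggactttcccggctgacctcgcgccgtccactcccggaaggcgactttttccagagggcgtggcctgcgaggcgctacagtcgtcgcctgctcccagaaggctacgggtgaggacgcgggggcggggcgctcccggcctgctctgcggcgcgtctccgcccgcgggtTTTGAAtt
Top2a: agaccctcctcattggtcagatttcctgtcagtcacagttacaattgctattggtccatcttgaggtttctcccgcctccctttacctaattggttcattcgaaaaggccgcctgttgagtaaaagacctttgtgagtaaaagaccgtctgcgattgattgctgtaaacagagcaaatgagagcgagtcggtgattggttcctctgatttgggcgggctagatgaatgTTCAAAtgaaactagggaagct
The motif was in 9 of 27 tested cell cycle genes with a promoter in the table and in 16.2% of all promoters. CCAAT was in 19 of these 27, and TTTCCCGC, an E2F site, in 2 of them and in 0.813% of all promoters. Here too a gene was counted by any of its promoters, and the shares are over single promoters.

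Macrophage genes were higher, with 21 of 32 risen and 2 fallen (median 1.68). Cd68, a lysosomal protein of macrophages, went from 2.46, 2.78 and 2.63 to 5.22, 5.32 and 4.88 (5.72-fold higher, adjusted p = 3.4e-07). Gpnmb, a marker of lipid-laden macrophages, went from 1.26, 0.91 and 1.28 to 5.12, 4.87 and 4.54, 12.9-fold higher. In both, every array of 7 d lies far above those of 0 d. Fcgr3a, an Fc receptor, rose 14.4-fold and Lbp 13.9-fold. Cd163, a scavenger receptor of resident macrophages, was 1.83-fold higher and was not called. Spp1 (osteopontin), which Schwann cells also make, fell 2.33-fold and Cd36 2.31-fold. Spp1 missed the mark in the authors' matrix (log2 -0.95). All 5 macrophage markers were measured on every array, with a summed signal of 4.09 to 4.32 at 0 d and 6.07 to 6.37 at 7 d, and 4 of them rose. The part of macrophage number in these changes was not tested.

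Genes of lipid uptake and export rose in 5 of 15 cases and 1 fell. Apoc1, an apolipoprotein made by macrophages, went from -2.76, -2.17 and -2.23 to 2.58, 2.13 and 1.95, 24.4-fold higher with no overlap. Olr1, the oxidized LDL receptor, was not well above background at 0 d and rose at least 13.7-fold (adjusted p = 2.72e-09). Abca1, which exports cholesterol, rose 5.07-fold. Apoe, the main lipid carrier of the nerve, was 1.55-fold higher and was not called, while in the authors' matrix it was (log2 1.08). Lpl, lipoprotein lipase, fell 3.26-fold.

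Lymphocyte genes showed the greatest rise of the lists. All 20 tested genes of T and cytotoxic lymphocytes rose, with a median of 3.69, or 3.60 with undetected genes at their bound. Of these, 3 were not well above background on any 0 d array and passed the filter only through a later group. With only probes well above background in both groups 15 were called, and with normexp background correction and quantile normalization 17. Cd8a, the co-receptor of cytotoxic T cells (probe on rn4 chr4:104593483-104593542), was at -5.60, -6.02 and -5.62 at 0 d and at 0.59, 0.63 and 0.23 at 7 d. That is 75.2-fold (log2 6.23 ± 0.22, adjusted p = 3.52e-09) and the greatest rise among genes measured on all 6 arrays at this scaling. With normexp background correction it was log2 4.14, below Dio3 (4.59) and Crabp1 (4.48). Cd3e, part of the T cell receptor complex, was not well above background on any 0 d array and rose at least 15-fold, to -2.66, -2.34 and -2.49. Cd2, an adhesion molecule of T and NK cells, was 33.0-fold higher, with 1 of 3 arrays of 0 d well above background. The summed signal of 4 T cell markers was 0.28 to 0.56 at 0 d and 2.50 to 2.85 at 7 d, and the part of T cell number was not tested.

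Genes of MHC class II and antigen presentation rose in 13 of 15 cases and none fell (median 1.54). Cd74, the invariant chain, went from 4.73, 4.97 and 4.64 to 6.11, 6.03 and 6.18, 2.51-fold higher (adjusted p = 2.3e-06). RT1-Da, a class II chain, rose 2.86-fold, and every 7 d array lay above 0 d for both. The co-stimulator Cd86 rose 4.52-fold, and Cd80, not well above background at 0 d, at least 4.06-fold, with log2 0.59 and no call under normexp background correction. B and plasma cell genes were few on the arrays, with 5 tested and 3 higher. Cd79b, part of the B cell receptor, overlapped between the groups (log2 0.39, adjusted p = 0.299, and -0.19 after quantile normalization), the 2 B cell markers with a probe were not well above background on any 0 d array, and Jchain rose at least 2.19-fold from below background.

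Mast cell genes went the other way. Of 10 mast cell genes 7 fell and 1 rose, with a median of -1.55. Cpa3, a protease of mast cell granules, went from 2.53, 2.09 and 2.31 to 0.71, 0.36 and 0.39 (3.54-fold lower, adjusted p = 9.84e-06). Ms4a2, the beta chain of the IgE receptor, fell 5.86-fold and Cma1, chymase, 4.67-fold. All 3 are clear of overlap. Kit, the receptor that mast cells need, rose 2.87-fold on its brighter probe, from a low level, and its other probe gave log2 -0.36 and was not called. It was not called after quantile normalization either (log2 0.98). Neutrophil genes were mixed, with 4 of 10 higher and 1 lower. This was 1 higher among genes measured in both groups and 7 higher without 7 d replicate 1. S100a8 and S100a9, alarmins of neutrophils, were 1.83- and 1.86-fold higher and were not called, although 2 dimmer probes of S100a8 were (log2 1.32 and 1.34). Lcn2 fell 3.46-fold.

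Complement genes rose in 8 of 15 cases and 1 fell. C3, the central component, went from 0.26, 0.23 and 0.57 to 2.92, 2.95 and 2.65, 5.60-fold higher (adjusted p = 4.96e-07). Cfi, a protease that cleaves C3b, rose 14.8-fold, and Cd55, which protects cells from complement, fell 2.44-fold. Among cytokines and chemokines 17 of 29 rose and 1 fell, with a median of 1.67, or 1.45 with undetected genes at their bound. Tgfb1 was at -0.49, -0.47 and -0.64 and then at 1.15, 1.13 and 1.13, 3.19-fold higher. Ccl2, which draws monocytes, rose 3.67-fold from 1.28, 1.33 and 1.65. The chemokine Cxcl14 rose 9.78-fold, and Cxcl11, a ligand of Cxcr3 on T cells, by log2 5.85, with 1 of 3 arrays of 0 d well above background. Its change was 6.55 without 0 d replicate 3 and 3.42 with normexp background correction. Ccl19, which guides cells to lymph nodes, fell 2.03-fold and fell short of the mark without 0 d replicate 1 (log2 -0.90) or 7 d replicate 3 (log2 -0.92). The count of lower cytokine genes was 2 after quantile normalization and without 0 d replicate 2 or 3.

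Interferon response genes rose in 11 of 19 cases and none fell, but the arrays within each group varied widely. Cxcl10, a chemokine induced by interferon, was at 0.78, 0.03 and 3.14 at 0 d and 4.15, 5.08 and 3.78 at 7 d. Irf7, a factor that amplifies the interferon response, was at 4.91, 5.23 and 6.15 and then at 6.50, 7.08 and 6.32. Replicate 3 of 0 d was the highest control in both, and replicate 2 of 7 d the highest of its group. Cxcl10 rose by log2 3.02 (adjusted p = 0.00387; 2.38 without 0 d replicate 2 and 3.93 without 0 d replicate 3), Mx1, an antiviral GTPase, 4.59-fold (adjusted p = 0.0153) and Irf7 2.31-fold (adjusted p = 0.0425). With slide as a random block 5 genes were called, and Mx1 and Irf7 were not among them. Mx1 was not called without 0 d replicate 2 or 7 d replicate 2 (log2 1.76 and 1.89) and was at 2.81 without 0 d replicate 3, and Irf7 kept its call only when 0 d replicate 3 was the array left out. The count was 7 without 0 d replicate 1, 6 without 0 d replicate 2, 6 without 7 d replicate 2 and 13 without 0 d replicate 3.

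Cxcl10 and Gbp2, an interferon-induced GTPase that rose by log2 1.74, hold the core of the interferon-stimulated element (GAAA, any 2 bases, GAAA) in the 250 bases before the RefSeq start on GRCr8 (chr14:15988816-15989065, plus strand, and chr2:234005477-234005726, plus strand). Capitals mark it on either strand.
Cxcl10: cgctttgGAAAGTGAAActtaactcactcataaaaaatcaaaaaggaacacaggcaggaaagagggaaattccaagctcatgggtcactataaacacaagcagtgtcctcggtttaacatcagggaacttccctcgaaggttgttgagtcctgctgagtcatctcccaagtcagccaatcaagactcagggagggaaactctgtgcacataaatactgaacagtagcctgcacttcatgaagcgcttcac
Gbp2: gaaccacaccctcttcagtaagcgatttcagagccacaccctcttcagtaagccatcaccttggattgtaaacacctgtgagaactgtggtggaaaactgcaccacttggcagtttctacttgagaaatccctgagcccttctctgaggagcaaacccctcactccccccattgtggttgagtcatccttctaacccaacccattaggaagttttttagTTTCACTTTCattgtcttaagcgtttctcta
It was in 7 of 13 tested interferon genes with a promoter in the table, 4 of them among the 9 that rose, and in 3.41% of all promoters. As above, genes were counted by any of their promoters and the share is over single promoters. None of the cholesterol, fatty acid and cell cycle promoters held it.

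The matrix itself changed in few genes. Of 40 collagens and other matrix genes 6 rose and 2 fell, near the shares over all genes, and the median was 0.10. Col1a1, the main chain of collagen I, was at 8.58, 8.64 and 8.65 and then at 8.0, 7.99 and 8.01. These tight groups differ by log2 -0.62 (adjusted p = 0.000217), under the mark, while a second probe gave -1.07 and was called. On the first probe the difference was -0.13 after quantile normalization (adjusted p = 0.166) and -0.08 with normexp background correction (adjusted p = 0.227), so it depended on the scaling. Fn1, fibronectin, differed by log2 0.24 (adjusted p = 0.12), and by 0.57 after quantile normalization (adjusted p = 0.000259), in both under the mark. Tnc, tenascin C, an adhesion-modulating protein of injured tissue, stood out, from -0.56, -0.88 and -1.35 to 3.32, 3.75 and 3.91 (24.1-fold higher, adjusted p = 7.48e-08). Thbs2 rose 4.11-fold. Fmod, fibromodulin, fell 3.55-fold, and Col5a3 fell 2.04-fold and was under the mark after quantile normalization (log2 -0.92) and without 0 d replicate 2 or 3 (log2 -0.96 and -0.95).

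Matrix proteases and their inhibitors rose in 13 of 25 cases and none fell (median 1.00), though 1 was called lower after quantile normalization and 2 without 0 d replicate 3. Mmp9, a gelatinase, was well above background on 1 of 3 arrays at 0 d (-6.51, -6.11 and -6.69) and on all at 7 d (-1.56, -1.21 and -1.16), 35.0-fold higher (adjusted p = 5.36e-08). Mmp12, the elastase of macrophages, and Mmp7, matrilysin, were below background on all 0 d arrays. They rose at least 25.6-fold and at least 21.3-fold. Mmp13, a collagenase, rose 18-fold. Timp1, an inhibitor of these enzymes, went from 4.88, 5.05 and 5.13 to 6.11, 6.28 and 6.04, 2.18-fold higher.

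Vessels and barriers changed little as a list, with 3 of 21 genes higher and 3 lower. Pecam1, an adhesion molecule of all endothelium, differed by log2 0.29 (adjusted p = 0.0691), and by -0.04 after quantile normalization. Cldn5, the tight junction protein of barrier endothelium, went from 4.24, 4.06 and 4.30 to 2.78, 2.61 and 2.67, 2.86-fold lower (adjusted p = 1.39e-06). Slc2a1, the glucose transporter of barrier cells, fell 3.33-fold. Aplnr, the apelin receptor of sprouting vessels, rose 3.27-fold and Eng, endoglin, 2.38-fold. The summed signal of 4 endothelium markers was 4.75 to 4.86 at 0 d and 3.82 to 3.93 at 7 d, with 1 called lower. For 3 fibroblast markers, Col1a1 among them, it was 9.16 to 9.32 and then 8.70 to 8.72, with none called. The part of cell number was not tested. In the list of fibroblast and perineurial genes 2 of 13 rose. Pdgfra, a fibroblast receptor, overlapped between the groups (log2 0.09, and 0.30 with adjusted p = 0.00692 after quantile normalization), Thy1 rose 4.56-fold, and Ly6c, which also marks monocytes, rose 2.80-fold but lost its call with slide as a random block and without 0 d replicate 2 or 7 d replicate 2.

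Ion channel genes fell in 6 and rose in 5 of 24 cases, with 3 higher under normexp background correction. Kcna1, a potassium channel beside the node of Ranvier, went from 5.52, 5.58 and 6.07 to 3.86, 3.53 and 3.61, 4.15-fold lower (adjusted p = 2.42e-06). The background potassium channel Kcnk1 fell 5.59-fold. The calcium-activated channel Kcnn4 of immune cells rose 5.97-fold, and Kcnk13 rose 3.55-fold. Scn7a, a sodium channel of Schwann cells, overlapped (log2 -0.31, adjusted p = 0.138). Of 27 axon guidance genes 7 rose and 1 fell, or 2 after quantile normalization and without 0 d replicate 1. Sema3b fell 2.49-fold, Epha3 rose 3.44-fold, and Plxna4, below background at 0 d, rose at least 1.09-fold, which is close to no bound at all. Epha3 and Plxna4 were not called with normexp background correction. Sema3a, a repellent of axons, overlapped (log2 -0.26). For Slit2 the probes disagreed, with log2 -0.83 on the brightest, -1.34 on the next and 2.23 on the dimmest.

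Genes best known from neurons were split, with 4 of 16 higher and 4 lower. Nefl, the light neurofilament chain, went from -4.22, -4.67 and -3.78 to -0.63, -0.84 and -0.49, 11.9-fold higher (adjusted p = 1.19e-05), and Nefm rose 6.32-fold. Stmn2, a microtubule regulator of growing axons, went from -0.56, -0.73 and -0.33 to -2.42, -2.66 and -1.5, 3.14-fold lower (adjusted p = 7.16e-05). Prph, a filament of peripheral neurons, fell 2.80-fold. Each pair of groups is clear of overlap. After quantile normalization 2 of these genes were called higher, and without 7 d replicate 2 there were 2 called lower. The 4 neuron body markers had a summed signal of 1.57 to 1.74 at 0 d and 1.60 to 1.85 at 7 d, and 1 of them was called higher.

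Skeletal muscle genes were lower in all 7 cases, yet they followed single arrays. Acta1, the actin of muscle fibres, was at 7.68, 3.12 and 3.59 at 0 d and -0.74, 2.69 and 2.35 at 7 d. Replicate 1 was the highest of 0 d and the lowest of 7 d, and the other arrays of the groups lie much closer to each other. The summed signal of 7 muscle genes was 10.47 on 0 d replicate 1, 6.69 and 7.16 on the other 0 d arrays, 2.48 on 7 d replicate 1, and 6.09 and 5.43 on the other two. The fall of Acta1 was log2 -3.36 (adjusted p = 0.0219), -1.92 without 0 d replicate 1 and -2.28 without 7 d replicate 1, and it was not called in either. None of the 7 was called without either array or with slide as a random block. Adipocyte genes fell in 2 of 5 cases, Fabp4 and Cidec, and in none without 0 d replicate 1. Of 3 red blood cell genes Slc4a1 was called lower, and it was called in the full set although its groups overlap (0.45, 0.36 and -2.23 against -2.67, -2.28 and -1.68). The call was lost without 0 d replicate 1 or 2 and without 7 d replicate 1 or 2, and the change was log2 -2.61 without 0 d replicate 3.

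**Figure D3:**
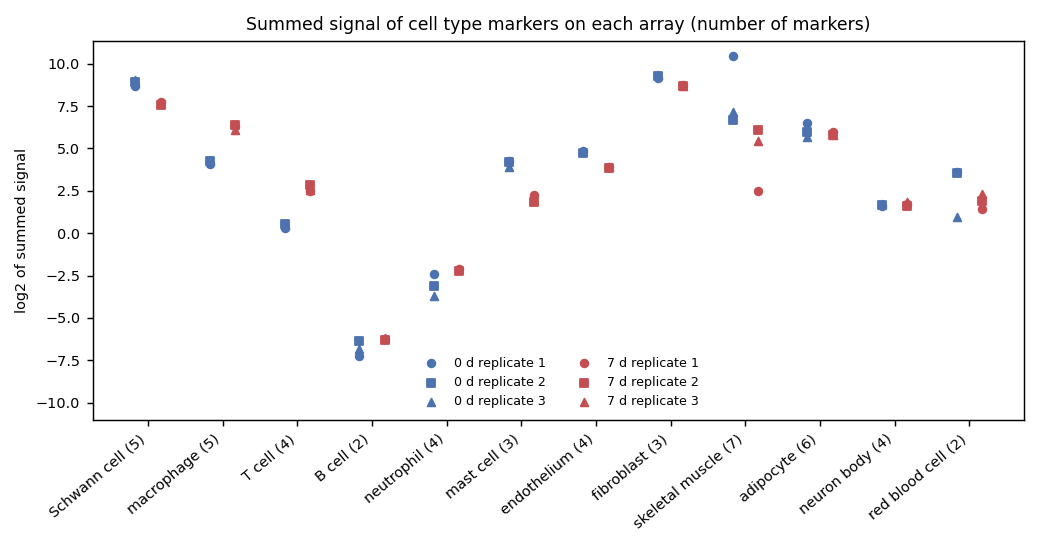
Log2 of the summed signal of the cell type markers on each array, 0 d in blue and 7 d in red, with 1 symbol a replicate and the number of markers with a probe in brackets. Macrophage and T cell markers were higher on all 7 d arrays, and mast cell, Schwann cell, endothelium and fibroblast markers were lower. Neuron markers overlapped, and skeletal muscle spread from 10.47 on 0 d replicate 1 to 2.48 on 7 d replicate 1.

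Over all genes measured on all 6 arrays, with the groups apart, and at the scaling without normexp, the greatest rises after Cd8a were in Crabp1, Calcb, Dio3 and Gpr83. Crabp1, which binds retinoic acid in the cell, went from -4.10, -4.05 and -4.74 to 1.19, 1.41 and 1.51, 50.7-fold higher (adjusted p = 9.72e-09). Calcb, the beta form of the peptide CGRP, rose 48.1-fold, to 0.11, 0.29 and 0.13. Dio3, which inactivates thyroid hormone, rose 42.1-fold, and the receptor Gpr83 32.4-fold. They were followed by Il1rl1, the receptor of interleukin 33 (30.3-fold, with log2 0.92 and no call on its other probe), Epcam (27.7-fold), Ubd, an interferon-induced ubiquitin-like protein (27.2-fold), Gpr84, a fatty acid receptor of myeloid cells (27.1-fold), and Hk3, the hexokinase of white cells (27.1-fold). Of the 10 greatest falls 7 were in the muscle genes Pvalb, Myh4, Ckmt2, Dhrs7c, Pgam2, Ckm and Actn3, which move with the muscle signal above. Without 0 d replicate 1 the change of Ckmt2 was log2 -3.16, of Dhrs7c -3.07 and of Pgam2 -2.91, still called, and the other four were not called. The others were Scd, Zbtb16, a transcription factor (log2 -3.86, but -4.73 without 0 d replicate 3 and -1.72 on its other probe), and Hrk, a killer protein of the Bcl2 family. Hrk went from -0.51, -0.66 and -0.73 to -4.07, -4.67 and -4.46, 13.6-fold lower.

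To show what is particular to 7 d, this day was also set against 4 d and 14 d, in contrasts whose means use no 0 d array, although all 15 nerve arrays set the shared estimate of the spread. Against 4 d, 468 probes were higher (1.33%) and 445 lower (1.27%), together 2.6%. With only the 6 arrays compared the counts were 798 and 325. The share of higher probes was 51.3% here, 71.1% with only the 6 arrays, 39.4% after quantile normalization and 72.9% with normexp background correction. The lower count was 229 without 4 d replicate 1, 203 without 4 d replicate 2, 921 without 4 d replicate 3 and 266 without 7 d replicate 2. Gfra3 rose further, from -1.30 ± 0.07 (SD, n = 3) at 4 d to 1.61 ± 0.10, 7.53-fold (limma adjusted p = 4.73e-07). Pappa, a protease of insulin-like growth factor binding proteins, was 5.47-fold and Mmp13 6.10-fold higher than at 4 d. Moxd1, a monooxygenase, was 5.32-fold higher. Clca4l, a chloride channel regulator, was 4.90-fold and Meltf 4.67-fold lower than at 4 d. Ano7 and the olfactory receptor genes Or4d10, Or4c1 and Or10al27 complete the list by rule, from dim signals that spread by up to 2.23 (SD, n = 3) within a group. In none of the 27 lists were over 3 genes called in either direction, with 1.3% of all genes higher and 1.26% lower, together 2.56%. The 3 macrophage genes that were lower than at 4 d were Gpnmb (log2 -1.21), Cd163 (-1.10) and Arg1 (-1.22).

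Against 14 d, 260 probes were higher at 7 d (0.74%) and 320 lower (0.91%), and by genes 0.907% were higher and 0.857% lower. The higher share was 44.8%, and 56.4% with normexp background correction. The higher count was 170 without 14 d replicate 2, 855 without 14 d replicate 3 and 160 without 7 d replicate 2, and the lower count was 180 without 14 d replicate 2, 157 without 7 d replicate 2 and 194 without 7 d replicate 3. The 14 d arrays lie on other slides and another scan day than the 7 d arrays. With slide as a fixed block over all 30 arrays, an alternative chosen after the data were seen, 74 probes were higher and 75 lower. That fit used the 33381 probes tested in both tissues. In it the slide of the 7 d nerve arrays is tied to the other slides by 1 ganglion array only, which limits its precision. The part of slide in the smaller counts was not tested. Mmp13 was at -0.22 ± 0.52 at 7 d and -2.88 ± 0.26 at 14 d (SD, n = 3), 6.33-fold higher (limma adjusted p = 0.000103), so that its signal at 7 d lay above both neighbouring days. Mmp9 was 4.27-fold, Gpr84 4.41-fold, Ccl12 5.42-fold and Ifit1 4.65-fold higher than at 14 d. Egfl6, a matrix protein, was 8.45-fold lower, Btnl8 9.58-fold and the potassium channel Kcnj13 5.19-fold lower. Klk10 and Or4c1, both dim, were lower as well.

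**Figure D4:**
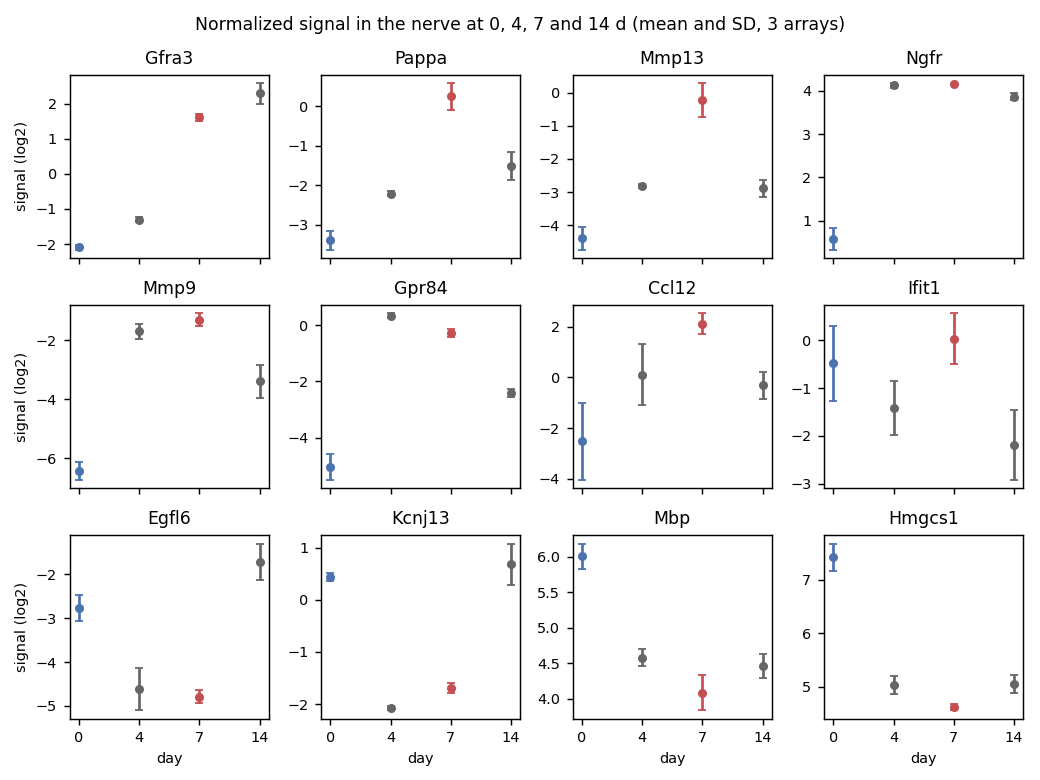
Mean and SD of the normalized signal (log2, 3 arrays) in the nerve at 0, 4, 7 and 14 d, with 0 d in blue and 7 d in red. Each panel has its own axis range. Mmp13 and Pappa were highest at 7 d, Ngfr had means of 4.13 at 4 d and 4.16 at 7 d, and Egfl6 and Kcnj13 were low at 4 and 7 d and higher at 14 d.

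No cholesterol or fatty acid synthesis gene was called between 7 d and 4 d or between 7 d and 14 d. Of the myelin genes 1 was lower at 7 d than at 4 d, Ugt8, and 2 were lower than at 14 d, Mag and Cntnap1. Mbp differed from 4 d by log2 -0.50 (adjusted p = 0.048) and from 14 d by -0.38 (adjusted p = 0.143), both under 2-fold.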

How the data were processed

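Total RNA was hybridized to 1-colour Agilent arrays. The authors deposited scanner files, whose processed intensity (background-subtracted by Feature Extraction 10.5.1.1) was used, and a matrix of log2 values deposited by the authors, whose centring is not given in the sources used here (r of 0.998 to 0.999 with the scanner values). From the intensity, log2 minus the 75th percentile of each array was computed. Control spots and outlier flags were left out and the spots of a probe averaged, giving 41012 probes, of which 35157 were tested. The 99 probe values missing on the 6 arrays were not imputed.

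Differences were fitted with limma 3.58.1 (R 4.3.3) over the 15 nerve arrays, with group means and 1 shared estimate of the spread, two-sided, with Benjamini-Hochberg adjustment over all probes tested. A gene was taken by the probe with the highest mean signal, and 3809 genes had several tested probes. A gene that no 0 d array detected is given as at least N-fold over the dimmest detected signal. The fit was tested on simulated data. The groups and tests follow the labels, and the 27 lists (549 genes, 529 with a probe) and all members were chosen with earlier results of these data known. Genes were named if they were key genes of a list, the 2 called genes with the greatest change in each direction of a list, or the 10 (neighbouring days: 5) over all genes.

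Probe positions are those in the files (rn4), where the part of the gene is not given. Symbols came from the files, and 16317 of 20607 RefSeq accessions were found in RefSeq's table for GRCr8. Promoters are RefSeq's (GRCr8). Alternatives covered normalization, background correction, the filter, the arrays fitted, the methods' t-test, slide, replicate number and each array left out. Fits with slide as a fixed block, and of nerve against ganglia, were added after seeing the data. The number of arrays limits the precision. Some genes of the lists are counted but not reported singly here.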

Additional observations from a re-analysis of the deposited data

Results flagged for a closer look

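The change from 0 d to 7 d was also set against that in the L4-6 dorsal root ganglia of the same days. The model covered 30 arrays with slide as a fixed block and was chosen after seeing the data. The nerve arrays of each of these days share their slide with only 1 ganglion array of that day. With the slide term the difference between tissues therefore rests on 1 ganglion array a day, and the counts and p-values of that fit carry this limit. Of 33381 probes tested in both tissues, 8305 differed between the tissues in their change, and 12756 without the slide term. Of the 33381 probes, 8041 were called in the nerve. Among those 8041, 3590 (44.6%) differed in the direction of the nerve's change and 93 (1.16%) in the opposite one. The 8041 were chosen by their change in the nerve, and that change is also part of the difference between tissues. Most of this split was therefore set by the choice, and it does not measure how far the responses differ. The change of Ngfr was greater in the nerve by 4.07 on the log2 scale (limma adjusted p = 4.97e-09), and that of Calcb by 6.15 (adjusted p = 1.57e-07). For Cd74, which rose in both tissues, the change was greater in the ganglia (nerve minus ganglia -1.73, adjusted p = 0.000855), and the same was true of Gap43 (-1.33, adjusted p = 0.0056).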

How the results depend on the processing

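None of the 124 called genes that were named changed sign under any alternative run. Of those not called, 6 did. After quantile normalization, in the authors' matrix and with normexp, Ano7 (log2 0.13) was at -0.44, -0.45 and -0.12, Meltf (0.34) at -0.38, -0.37 and -0.15, Pecam1 (0.29) at -0.037, -0.036 and -0.031, and Gap43 (-0.01) at 0.066, 0.071 and 0.053. Cd79b (0.39) was at -0.19 and -0.20 in the first 2. With the percentile over detected probes Erbb3 (-0.04) was at 0.022 and Gap43 at 0.056. Leaving out 1 array gave -0.10 to 0.33 for Ano7, -0.15 to 0.061 for Erbb3 and -0.25 to 0.18 for Gap43. Against 0 d, the count of higher probes (6365) was 4113 after quantile normalization, 4024 in the authors' matrix, 1644 with normexp and quantile normalization and 3534 with only probes well above background in both groups, and the lower count (2395) was 1523 with normexp. Leaving out 1 array gave 6094 to 6362 and 2188 to 2502. Against 4 d, the higher count (468) was 159 with normexp, 798 with only the 6 arrays compared, 838 with the methods' t-test unadjusted and 269 with slide as a random block, and the lower count (445) was 59 with normexp, 237 with the filter on both groups, 136 with the t-test after adjustment and 178 with slide as a random block. Leaving out 1 array gave 322 to 611 and 203 to 921. Against 14 d, the higher count (260) was 93 with normexp, 34 with the adjusted t-test, 100 with slide as a random block and 74 as a fixed block, and the lower count (320) was 72, 65, 119 and 75 in the same order, and 211 with the filter on both groups. Leaving out 1 array gave 160 to 855 and 157 to 330. The cause was not tested, except that the filter and the fit with slide as a fixed block test fewer probes. With the replicate number as a block the counts were 6338 and 2388 against 0 d, 463 and 432 against 4 d, and 246 and 272 against 14 d. The numbers do not pair the arrays (correlations of -0.27, -0.09 and -0.03 for 7 d with 0 d). Dim probes limit the rise, since 2093 higher probes had no signal well above background at 0 d.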

Other observations

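Olfactory receptor genes, which are known from the nose, were dim in the nerve at both times, with a median signal of -7.01 at 0 d and -5.37 at 7 d over 658 tested probes. Of these, 366 were not well above background on any 0 d array and passed the filter only through a later group, so no count of calls over all 658 is given. Of 204 measured on all 6 arrays 106 were higher at 7 d (52%), against 3529 of 29360 such probes in all (12%). The 29360 probes were not matched for signal, and no share among equally dim probes was computed. Over all probes tested, the higher count fell from 6365 to 4113 after quantile normalization and to 1644 with normexp and quantile normalization. Whether olfactory receptor probes rose more than other dim probes was not tested.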
